A study of Mus musculus with 12 samples.

Results

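Interferon-stimulated genes are the genes that a cell switches on when interferon binds its receptors. A group of 39 of them, named by gene symbol and all found among the 49585 genes counted, was followed in control and Rnmt conditional knock-out (Rnmt cKO) CD4 T cells. RNMT is the methyltransferase that completes the guanosine cap of mRNA. The group holds 4 transcription factors, 4 sensors of RNA or DNA, 11 effectors that bind or cut RNA, 4 other antiviral effectors, 5 interferon-inducible GTPases, 7 genes of ISG15, ubiquitin and ADP-ribose transfer, and 4 others. After 20 h of activation, 8 of the 33 members that could be tested in total RNA were higher in Rnmt cKO cells and 3 were lower, where 26.3% and 28.0% of all genes tested were. Of the 31 members that could be tested in ribosome protected fragments, 6 were higher and 4 lower, where 14.1% and 15.7% of all genes were.

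Interferons signal through paired receptors and the JAK kinases to STAT proteins. Type I interferons (alpha and beta) act mainly through a complex that holds STAT2 and IRF9 and binds the interferon-stimulated response element (ISRE). Interferon gamma, the interferon that activated T cells themselves make, acts at gamma-activated sites (GAS) and through the transcription factor IRF1. The products detect foreign or misplaced nucleic acid, block its translation or destroy it, and attack membranes around pathogens, and many of them feed back on the pathway.

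Cytoplasmic total RNA and ribosome protected fragments (RPFs, the mRNA stretches covered by ribosomes) were sequenced from 3 control and 3 Rnmt cKO samples, giving 12 libraries. All mice were female, on a C57B6/J background, and carried Rnmt alleles with loxP sites around exon 3 (Rnmt fl/fl); Rnmt cKO mice were CD4cre + and controls CD4cre -, so that no group carried Cre without the floxed alleles. CD4-Cre acts from the double positive stage of thymic development. Naive CD4 T cells isolated magnetically from lymph nodes were cultured for 20 h on plates that had been coated with antibodies to CD3 (5 ug/ml) and CD28 (1 ug/ml) and treated with 0.1 mg/ml cycloheximide before lysis. Reads assigned to genes numbered 15079703 to 22629563 in each total RNA library and 4123271 to 10661356 in each RPF library, where Rnmt cKO replicate 3 was the shallowest. Levels are given as CPM, the count of a gene relative to the size of its library after TMM scaling, and a gene was tested where 3 or more of the 6 libraries of that kind had a CPM over 1. Changes are given as the log2 fold change of Rnmt cKO over control (log2FC) with its standard error (SE). They are relative to the RNA sequenced, and fewer cells of a kind and less RNA per cell cannot be told apart in these data. The authors report less mRNA per cell in activated Rnmt cKO cells than in controls. They caution that falls of single genes are therefore understated and rises overstated by sequencing.

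Rnmt itself had 95.5, 94.1 and 94.3 CPM in the total RNA of the 3 controls and 29.3, 32.4 and 30.4 CPM in the 3 Rnmt cKO libraries. In RPF it had 104, 87.9 and 98.9 CPM against 10.5, 10.4 and 9.60 CPM. The genotypes did not overlap in either, as the labels require, and reads of exons other than the deleted one still count towards the gene. The CD4 T cell markers Cd4, Cd3d, Cd3e, Cd3g, Cd28, Lck and Cd5 were all present, with a summed level between 2343 and 3403 CPM in total RNA, whereas Cd8a and Cd8b1 together had between 9.85 and 41.7 CPM. Of the 7 CD4 T cell markers, 4 (Cd3d, Cd3g, Lck and Cd5) decreased in the Rnmt cKO, and Cd4 itself did not pass the test.

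Some libraries differed in markers of other cell types in ways the genotype label does not give. The summed level of 8 B cell markers in total RNA was 10.2, 6.83 and 37.6 CPM in controls 1 to 3 and 97.5, 117 and 21.4 CPM in Rnmt cKO 1 to 3, with Ms4a1 (CD20) the most abundant. In RPF the same sums were 13.3, 8.89 and 45.2 CPM and 145, 158 and 25.3 CPM. Control 3 and Rnmt cKO 1 and 2 were thus high, and control 1, control 2 and Rnmt cKO 3 low. Of the 8 markers, 3 were called higher in Rnmt cKO total RNA and 4 in RPF, and none lower. Of 12 myeloid markers only Cd68 could be tested in total RNA, and their sum there was 2.02, 1.80 and 1.78 CPM in controls and 5.70, 4.59 and 2.29 CPM in the Rnmt cKO. In RPF that sum was 5.07, 4.37 and 5.76 CPM against 10.8, 18.7 and 6.15 CPM. Of the 12, 3 could be tested there: Fcer1g and Spi1 increased, and Cd68, the most abundant, did not pass and had a log2FC of -0.61. The sum of 6 markers of plasmacytoid dendritic cells was 23.5, 26.1 and 23.3 CPM in control total RNA and 10.5, 7.02 and 9.42 CPM in the Rnmt cKO. The most abundant, Pacsin1, was the only one of the 6 that could be tested and decreased (log2FC -1.51 in total RNA and -1.20 in RPF), while Siglech, a defining marker, stayed at or below 0.162 CPM in total RNA. Of 5 NK cell markers, 2 could be tested in total RNA and both increased. Eomes, which T cells can also express, had 20.2, 35.7 and 20.5 CPM in the Rnmt cKO against 2.44, 3.02 and 3.23 CPM, and Klrk1 had 2.72, 1.86 and 2.20 CPM against 0.584, 1.75 and 1.024 CPM (log2FC 1.00), while Ncr1 reached at most 0.619 CPM in total RNA. The part of these markers' cells in the results below was not tested beyond 2 fits named where they apply. One had the B cell marker level as a covariate and one held the 3 samples lowest in B cell markers (control 1, control 2 and Rnmt cKO 3) alone. The second does not level the markers between the genotypes, since Rnmt cKO 3 had 21.4 CPM of them in total RNA against 10.2 and 6.83 CPM. It also leaves out control 3.

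The interferon-stimulated genes as a group held a mean share of protein-coding counts of 0.407% in control and 0.459% in Rnmt cKO total RNA. In RPF the means were 0.510% and 0.610%, and the difference between the genotypes was not tested. In total RNA they held 0.316, 0.384 and 0.522% of protein-coding counts in the controls and 0.477, 0.437 and 0.463% in the Rnmt cKO. In RPF the shares were 0.403, 0.478 and 0.651% and 0.636, 0.612 and 0.582%. The controls spread widely and the Rnmt cKO libraries lay within their range, between control 2 and control 3. Control 3 was the highest of the 3 controls for 24 of the 33 members tested in total RNA (36.8% of all genes tested) and for 20 of 31 in RPF (31.3% of all genes), and for 19 members in both kinds.

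**Figure D1:**
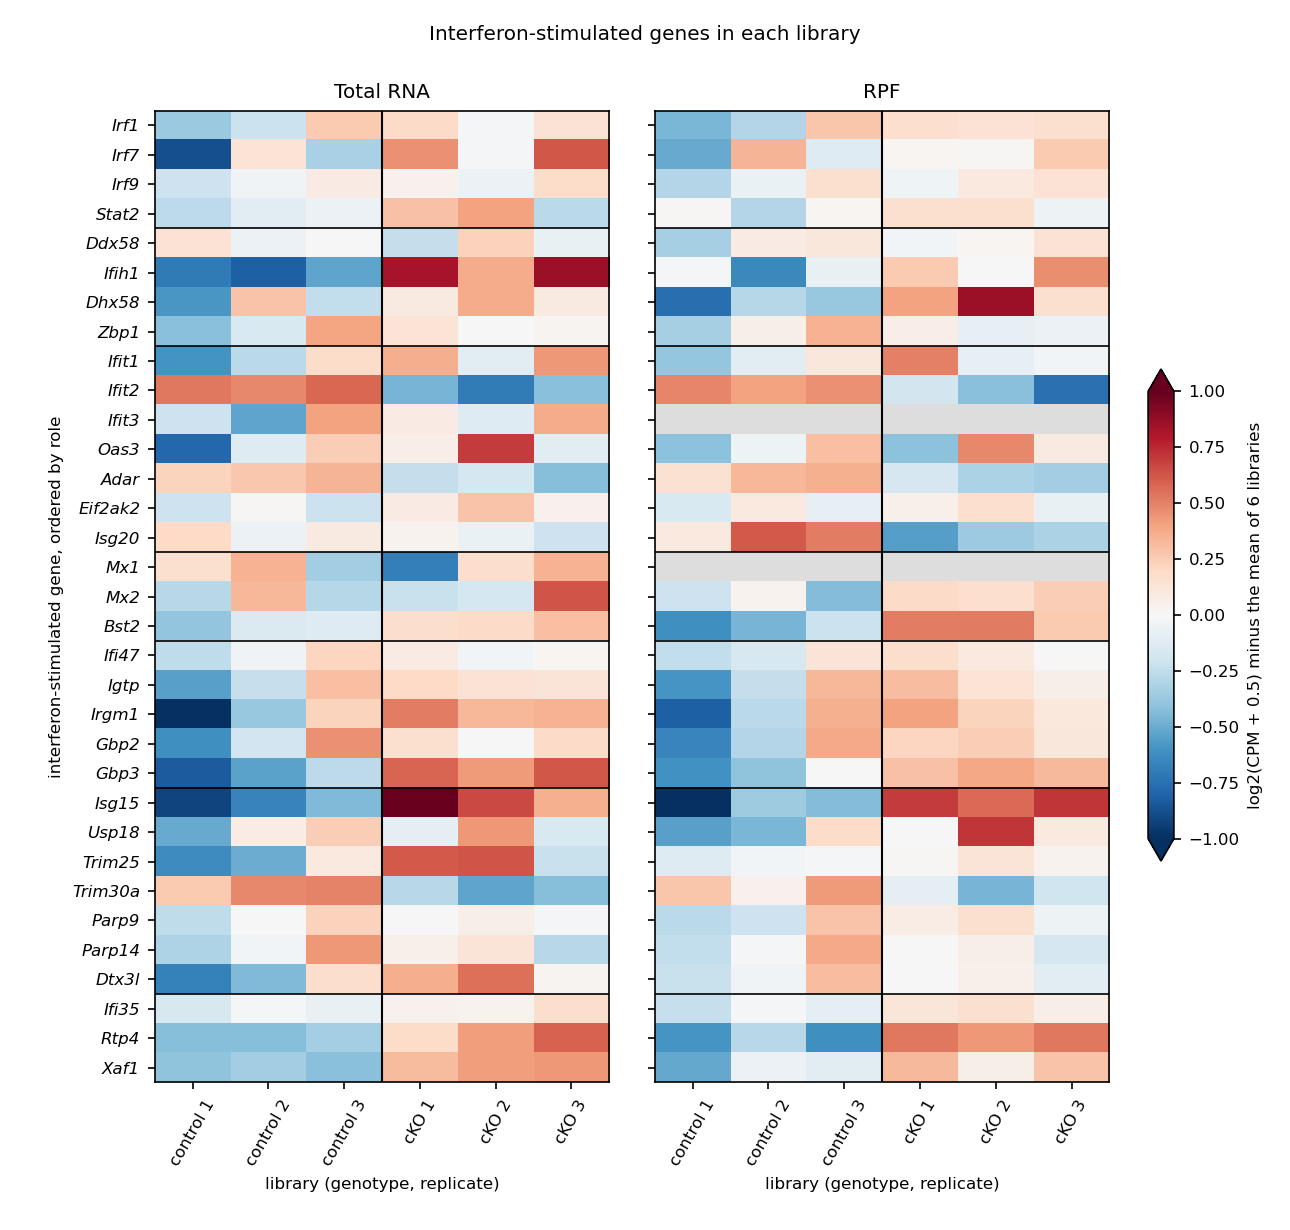
Heat map of the 33 interferon-stimulated genes tested in total RNA, by role from transcription factors at the top to other genes at the bottom. Each cell is log2(CPM + 0.5) of a library minus the mean of that gene over the 6 libraries of its kind, with grey for the 2 genes too low in RPF. Control 3 is the highest control in 24 of the 33 rows of total RNA, whereas Ifit2, Trim30a and Adar are red in all controls and blue in all Rnmt cKO libraries.

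In total RNA, 8 members increased and 3 decreased in the Rnmt cKO by the quasi-likelihood test of edgeR, adjusted after Benjamini and Hochberg over all 11519 genes tested, and 22 did not pass the threshold of 0.05. Of all genes tested, 26.3% increased and 28.0% decreased, so that both shares of the members (24.2% and 9.09%) were no higher than the background. The median log2FC of Rnmt cKO over control was 0.27 for the 33 members and -0.00370 for all genes. The members' median was 0.13 without control 1 and 0.088 with the B cell marker level as a covariate. The count that increased was 5 of 31 tested without Rnmt cKO 1 and 14 of 32 without control 3. The share of all genes in those fits is not given, so these counts show only how the member count moved. All 3 Rnmt cKO libraries lay above all 3 controls for 9 members and below them for 3, against 30.0% and 32.3% of all genes. Ifit3, Irf7, Isg15 and Rtp4 in total RNA, and Mx2 and Rtp4 in RPF, reached the level needed for a test through their Rnmt cKO libraries, with at most 1 control over it. Counts over the members tested thus lean towards members that are higher there. The replicates are numbered in the labels, which do not say that each is a separate mouse, so that p-values measure the spread between these samples.

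In RPF, 6 members increased and 4 decreased among 31 tested (19.4% and 12.9%), beside 14.1% and 15.7% of 11428 genes. The median log2FC was 0.19, and 0.00803 for all genes. It was 0.09 without control 1, 0.30 without control 3 and 0.049 with the B cell marker level as a covariate. All 3 Rnmt cKO libraries exceeded all 3 controls for 10 members and below for 4, against 22.2% and 24.3% of all genes. Translation efficiency (TE) was compared as the change in RPF relative to the change in total RNA, and there a single member, Ifih1, decreased and none increased among 31 tested, beside 6.57% and 3.24% of 10668 genes. The median TE change of the members was 0.01 on the log2 scale. Bst2, Gbp3, Isg15 and Rtp4 increased in both total RNA and RPF, and Adar, Ifit2 and Trim30a decreased in both. Dtx3l, Eif2ak2, Ifih1 and Xaf1 increased in total RNA only by the threshold, Dhx58 and Ifi35 increased and Isg20 decreased in RPF only by the threshold, and of these 7 a difference between RPF and total RNA passed its own test for Ifih1. With total RNA and RPF of the same sample paired by a sample block, it passed for Dtx3l as well, and 4 members in all were lower in TE and 1 higher, where 7.28% and 3.99% of all genes were.

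**Figure D2:**
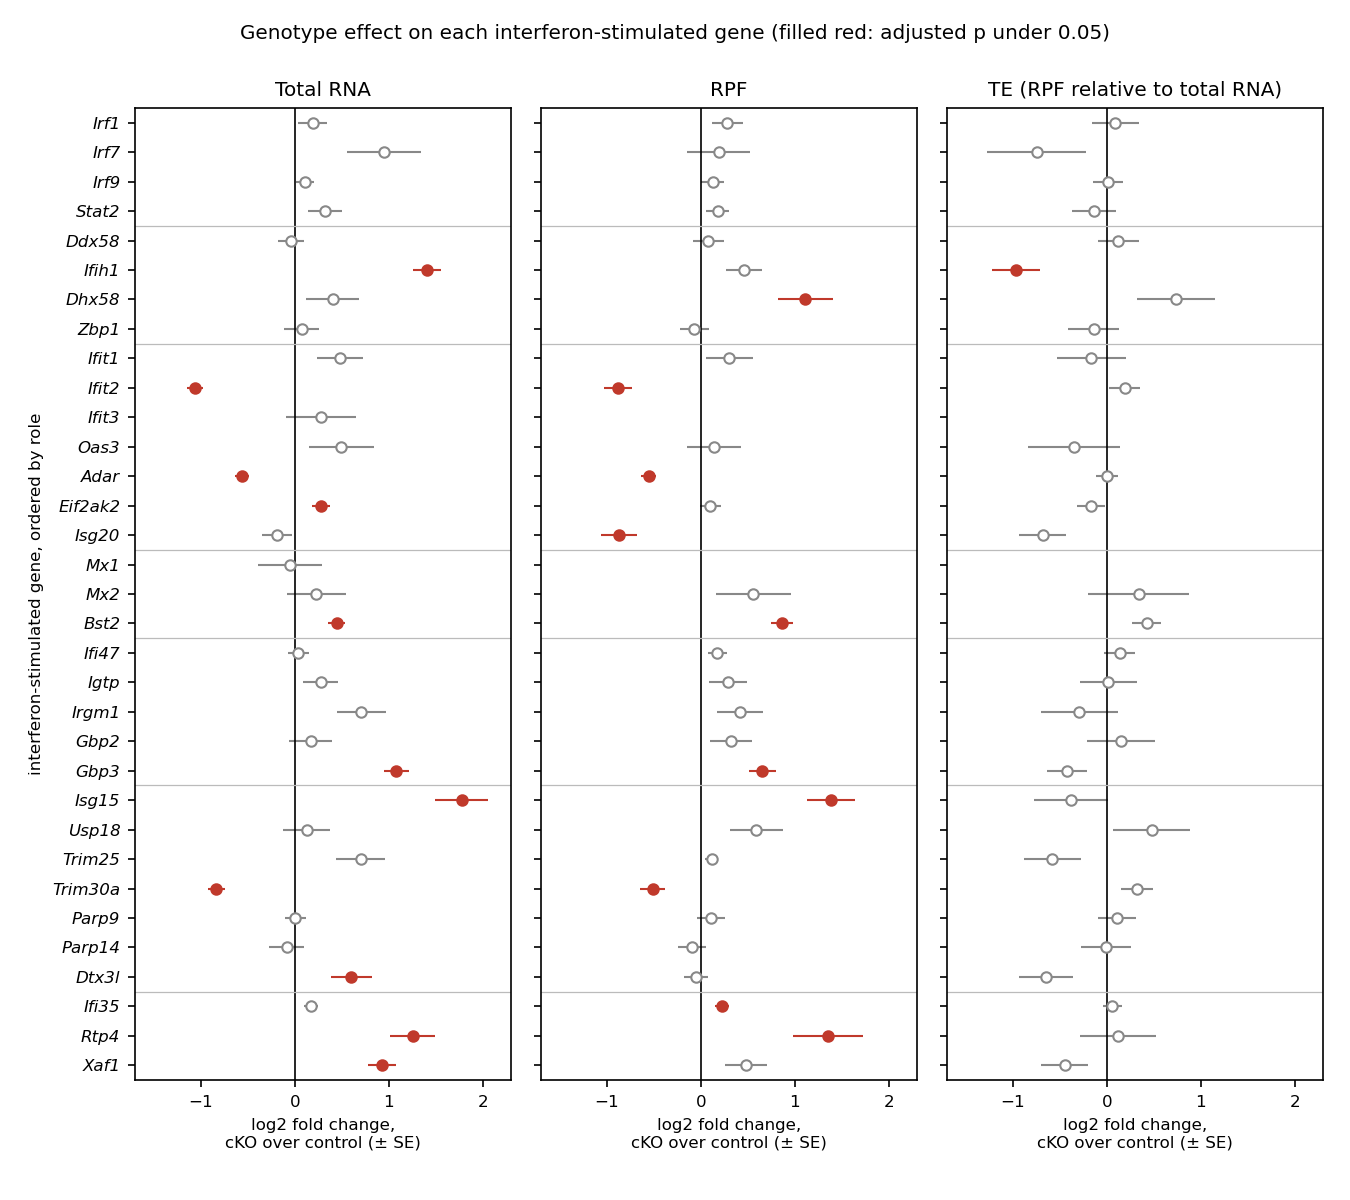
Log2FC of Rnmt cKO over control with its SE for each member, with panels for total RNA, RPF and TE, ordered by role. Filled red points passed an adjusted p of 0.05. Points lie on both sides of 0 in each role with more than 5 members, and in TE, from the fit that does not pair the libraries, the only filled point is that of Ifih1 at -0.96.

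Members are known to carry ISRE or GAS motifs near their starts, and the motifs are shown here because they were found among members that rose, members that fell and members that did not pass the test. The window from 250 bases before to 50 bases after the RefSeq start on GRCm38.p6 was found for 30 of the 39 members, and not for Dhx58, Zbp1, Oas2, Mx1, Mx2, Usp18, Parp9, Parp14 and Rtp4. The ISRE was searched as GAAA, any 2 bases and GAAA again, and the GAS as TTC, any 3 bases and GAA, on both strands. At least one ISRE stood in the windows of 16 of the 30 members, compared with 3.99% of 27025 genes, and a GAS in those of 9, compared with 9.55%; an ISRE and a GAS can overlap, as in Bst2. By what the members did in total RNA or RPF, an ISRE was found in 5 of 8 that increased, 1 of 4 that decreased and 8 of 13 that passed in neither, and a GAS in 3 of 8, 3 of 4 and 2 of 13. The difference between these shares was not tested. A match is a run of letters and not a binding site. In the sequences below, read 5′ to 3′ on the strand that spells the motif, capitals mark the ISRE or GAS. Those of Isg15, Gbp3, Bst2 and Ifih1 come from members that increased.
Isg15 ISRE: tgccgtagGAAAAGGAAAccgaaaca
Gbp3 ISRE: gggaaataGAAACTGAAActgtgtcc
Bst2 ISRE: cattccagGAAAATGAAActgaaagg
Ifih1 ISRE: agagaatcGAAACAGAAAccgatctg
Trim30a ISRE: ggaactgaGAAAAAGAAActaaagaa
Ifit2 GAS: atgggagcTTCCTGGAAgaatggat
Gbp2 ISRE: aagacagtGAAAGTGAAActaaaaga
Irf1 GAS: agcctgatTTCCCCGAAatgatgag
The Isg15 site is chr4:156200879-156200904 (minus strand), 78 bases before the start, and is the first of 3 overlapping ISREs there. The Gbp3 site is chr3:142559991-142560016 (minus strand) and the Bst2 site chr8:71537585-71537610 (minus strand, with a GAS that overlaps it). The Ifih1 site is chr2:62646206-62646231 (minus strand) and lies just after the start. Trim30a, which decreased, holds an ISRE at chr7:104465212-104465237 (plus strand), and Ifit2, which also decreased, a GAS at chr19:34550445-34550469 (plus strand) and no ISRE in its windows. Gbp2 at chr3:142620596-142620621 (minus strand) and Irf1 at chr11:53769916-53769940 (plus strand) are the most abundant GTPase and the most abundant transcription factor of the group per length of transcript, and neither passed the test.

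None of the 4 transcription factors passed the test in total RNA, RPF or TE, and all 4 had fold changes above 0 in total RNA and RPF. Irf1, the factor most directly induced by interferon gamma, had 246, 273 and 382 CPM in control total RNA and 363, 315 and 351 CPM in the Rnmt cKO, a log2FC of 0.19 (SE 0.15). All its Rnmt cKO values lay between those of control 2 and control 3. Irf9, the DNA-binding partner of STAT2, changed by a log2 value of 0.11 (SE 0.09), and Stat2 by 0.32 (SE 0.18). Irf7, which amplifies type I interferon production, was near the limit of detection, with 0.424, 1.38 and 0.863 CPM in controls and 1.83, 1.19 and 2.12 CPM in the Rnmt cKO, and its groups overlapped.

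Among the RNA and DNA sensors, Ifih1 (MDA5, a sensor of long double-stranded RNA; ENSMUSG00000026896, chr2:62595798-62646255 in GRCm38) changed most in total RNA. It had 14.9, 13.7 and 16.9 CPM in control total RNA and 43.8, 31.8 and 45.1 CPM in the Rnmt cKO. Each Rnmt cKO library lay above every control, at a 2.65-fold higher level (log2FC 1.41, SE 0.15, adjusted p = 0.000159 by edgeR's quasi-likelihood test). Leaving out each sample in turn kept the log2FC between 1.33 and 1.57 and the call in each of the 6 fits. In RPF, Ifih1 had 21.6, 13.7 and 20.6 CPM against 26.1, 21.8 and 30.3 CPM. The genotypes were barely apart there, with a log2FC of 0.46 (SE 0.19, adjusted p = 0.104). The change in RPF was thus smaller than that in total RNA, by -0.96 on the log2 scale (SE 0.26, adjusted p = 0.0315 for TE by edgeR's quasi-likelihood test), but this call was lost without control 1, without control 3 or without Rnmt cKO 1. Over the 6 fits that left out a sample the TE change ranged between -1.06 and -0.83.

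Dhx58 (LGP2, which helps MDA5 bind RNA) had 2.25, 3.32 and 3.06 CPM in control RPF and 5.62, 7.91 and 4.68 CPM in the Rnmt cKO, without overlap, and increased 2.16-fold (log2FC 1.11, SE 0.29, adjusted p = 0.0216 by edgeR's quasi-likelihood test). These are 71 reads in 3 controls and 148 in 3 Rnmt cKO libraries, and the call was lost without control 1 or without Rnmt cKO 2. In total RNA its groups overlapped, at 1.22, 2.65 and 1.67 CPM and 2.24, 2.84 and 2.25 CPM. Ddx58 (RIG-I, a sensor of RNA with an unmodified 5′ end) had a log2FC of -0.04 (SE 0.14) in total RNA and 0.08 (SE 0.16) in RPF, and Zbp1, a sensor of nucleic acid in the Z form, one of 0.07 (SE 0.19) and -0.07 (SE 0.15). Neither passed the test in any comparison.

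The effectors that act on RNA moved in both directions. Ifit2, of the IFIT family that binds RNA and hinders its translation (ENSMUSG00000045932, chr19:34550694-34576419), fell most. It had 65.6, 63.4 and 67.8 CPM in control total RNA and 32.7, 27.8 and 33.8 CPM in the Rnmt cKO. The genotypes were far apart and tight within each, and the level was 2.09-fold higher in controls (log2FC -1.06, SE 0.09, adjusted p = 4.78e-05 by edgeR's quasi-likelihood test). Its RPF levels were 26.2, 24.7 and 25.6 CPM against 16.3, 13.8 and 10.8 CPM, a log2FC of -0.88 (SE 0.15, adjusted p = 0.00336 by the same test). Both calls held in each fit that left out a sample and with the B cell marker level as a covariate. In the 3 samples lowest in B cell markers the log2FC was -0.91 in total RNA and -1.22 in RPF. Its neighbours in the family did not follow it: Ifit1 had a log2FC of 0.48 (SE 0.25) in total RNA and 0.30 (SE 0.25) in RPF, and Ifit3 one of 0.28 (SE 0.37) in total RNA, none past the threshold. Ifit3 has a near-identical copy, and since only uniquely aligned reads were counted its level is uncertain.

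Adar, which edits adenosines in double-stranded RNA and keeps MDA5 from responding to the cell's own transcripts (ENSMUSG00000027951, chr3:89715022-89753446), had 90.2, 93.1 and 97.7 CPM in control total RNA and 65.2, 68.3 and 57.1 CPM in the Rnmt cKO. Its RPF levels were 128, 145 and 147 CPM against 103, 92.3 and 90.3 CPM. Neither kind showed overlap, and the fall was of the same size in both, with log2FC values of -0.56 (SE 0.08, adjusted p = 0.000629) in total RNA and -0.56 (SE 0.08, adjusted p = 0.00196) in RPF by edgeR's quasi-likelihood test. The gene-level counts do not separate the interferon-induced isoform of Adar from the constitutive one. Isg20, an RNA exonuclease, had 9.96, 14.5 and 13.5 CPM in control RPF and 6.20, 7.13 and 7.38 CPM in the Rnmt cKO, a log2FC of -0.87 (SE 0.20, adjusted p = 0.0119 by edgeR's quasi-likelihood test) with no overlap. In total RNA, with 3.71, 3.02 and 3.40 CPM against 3.26, 2.99 and 2.68 CPM, its groups overlapped and the log2FC was -0.19 (SE 0.16).

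Eif2ak2 (PKR, the kinase that halts translation on binding double-stranded RNA) had 28.2, 32.8 and 28.0 CPM in control total RNA and 34.6, 39.7 and 33.6 CPM in the Rnmt cKO. The rise was 1.21-fold (log2FC 0.28, SE 0.10, adjusted p = 0.0422 by edgeR's quasi-likelihood test) and was lost without any of 4 of the 6 samples. In RPF the groups overlapped, with a log2FC of 0.10 (SE 0.11). Oas3, of the oligoadenylate synthetases that activate RNase L, had a log2FC of 0.50 (SE 0.35) in total RNA and 0.14 (SE 0.29) in RPF and passed in neither. The other Oas and Oasl members were too low to test.

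Of 39 members, 6 did not reach the level needed for a test in either kind of library: Oas1a, Oas2, Oasl1, Oasl2, Rsad2 (viperin) and Ifi44. Ifit3 and Mx1 did not reach it in RPF. Oasl2 had 0, 1 and 3 reads in the total RNA of the controls and 10, 14 and 23 reads in the Rnmt cKO, so that its groups did not overlap, and 3, 1 and 4 reads against 7, 18 and 8 in RPF. Without the filter on low counts, in a fit where 12.1% of genes increased in total RNA and 6.98% in RPF, Oasl2 was called higher in total RNA (adjusted p = 7.08e-08) and in RPF (adjusted p = 0.0297) and Oasl1, with 0, 5 and 2 reads against 4, 10 and 18 reads, was called higher in total RNA (adjusted p = 0.00195) by edgeR's quasi-likelihood test. That fit gave far smaller adjusted p-values at similar fold changes. For Ifih1 in total RNA they were 1.61e-35 without and 0.000159 with the filter, both by edgeR's quasi-likelihood test. The p-values of Oasl2 and Oasl1 are thus not comparable with those of the filtered fits, and the shares of this fit count every gene with a read. A fold change against so few control reads depends on the prior count of the fit and is not given. Oas1a had 12 reads over the 3 controls and 25 over the 3 Rnmt cKO libraries, Oas2 had 22 and 34, Rsad2 had 19 and 15 and Ifi44 had 19 and 38, and none of these passed the test without the filter. Oas1a has close copies in the mouse, and its uniquely aligned reads are uncertain for that reason.

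Of the other antiviral effectors, Bst2 (tetherin, which holds budding virus at the cell surface; ENSMUSG00000046718, chr8:71534255-71537456) rose in both kinds of library. It had 34.7, 41.3 and 41.8 CPM in control total RNA and 51.7, 52.3 and 56.3 CPM in the Rnmt cKO. In RPF it had 64.0, 70.8 and 84.5 CPM against 140, 141 and 118 CPM. The genotypes did not overlap, and the rise was 1.36-fold in total RNA (log2FC 0.45, SE 0.09, adjusted p = 0.00334) and 1.82-fold in RPF (log2FC 0.87, SE 0.12, adjusted p = 0.00123) by edgeR's quasi-likelihood test. Both calls held in every fit tried on more than 3 samples, including that with the B cell marker level as a covariate. In the 3 samples lowest in B cell markers the log2FC was 0.59 in total RNA and 0.82 in RPF. Mx1 and Mx2 are dynamin-like GTPases that trap viral particles, and laboratory strains such as C57BL/6 carry a defective Mx1 gene. Mx1 had a log2FC of -0.05 (SE 0.34) and Mx2, annotated as a polymorphic pseudogene, one of 0.23 (SE 0.32) in total RNA, and neither passed.

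**Figure D3:**
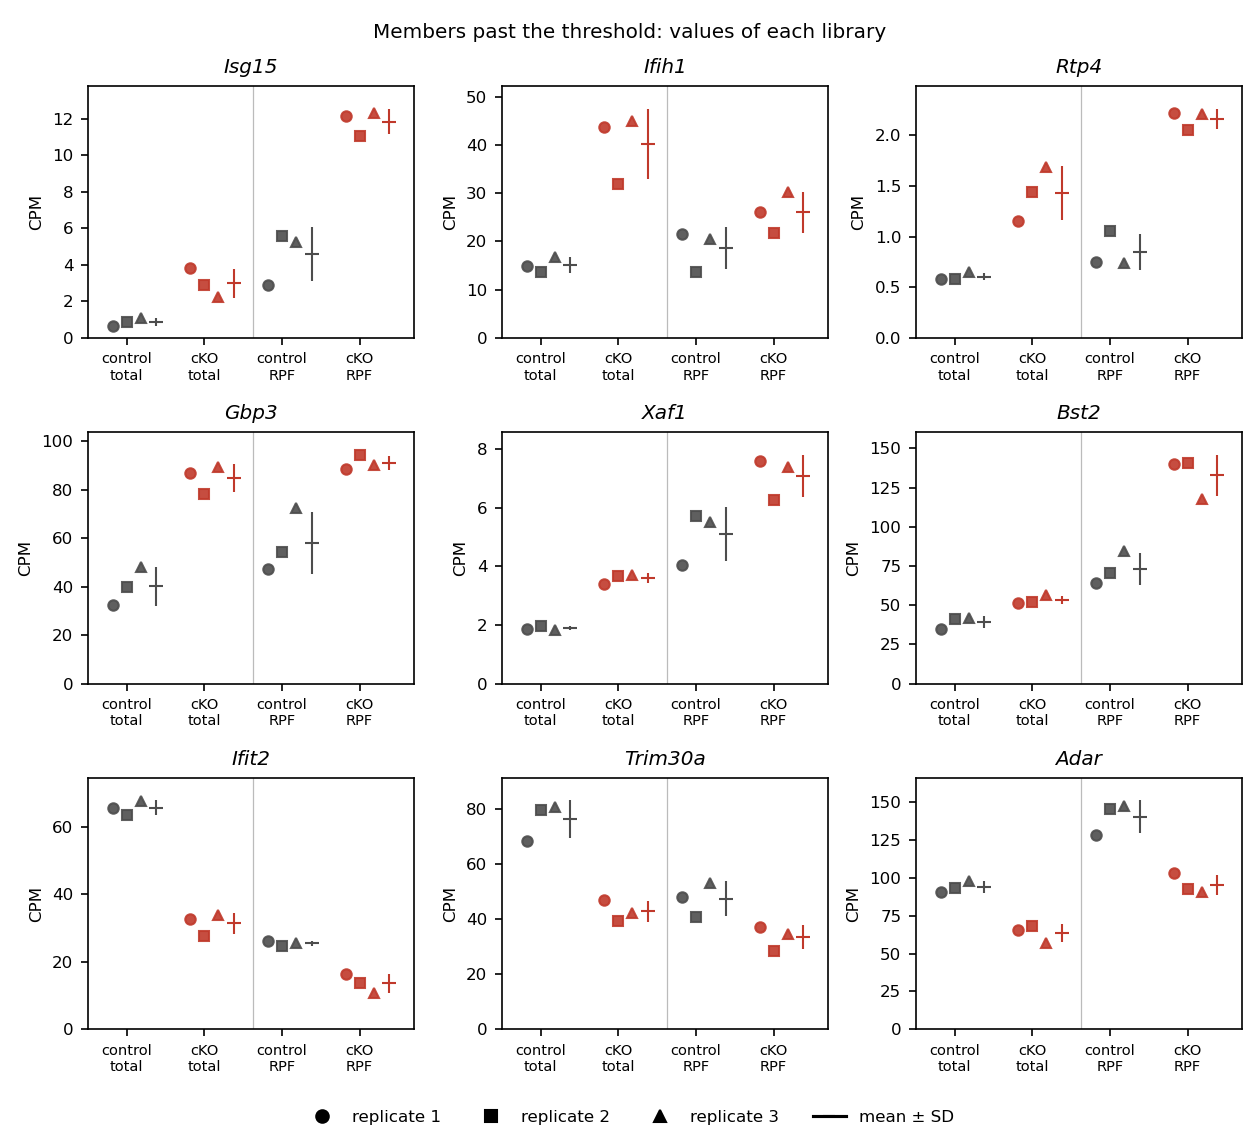
CPM of each library for 9 members past the threshold in total RNA, with control in grey and Rnmt cKO in red, the replicate by symbol and the mean with its SD (n = 3) beside the points. The axes start at 0. In total RNA the groups are apart in all 9 panels, and Ifih1 and Xaf1 are those of the 9 that did not pass in RPF.

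The interferon-inducible GTPases gather on membranes around intracellular pathogens, and Gbp2, Ifi47 and Igtp of this role were the most abundant members per length of exon. In control total RNA, Gbp2 had 351 CPM per kb of exon, Ifi47 had 180 and Igtp 141, and Irf1 followed with 75.5. The other GTPases were lower, with 33.9 CPM per kb for Irgm1 and 12.3 for Gbp3, and Isg15 had 1.13. Gbp2 had 596, 801 and 1254 CPM in controls and 1019, 914 and 1045 CPM in the Rnmt cKO, and in RPF 924, 1189 and 1891 CPM against 1696, 1732 and 1575 CPM. The control values spread by more than the genotypes differed and covered those of the Rnmt cKO, with log2FC values of 0.17 (SE 0.23) in total RNA and 0.32 (SE 0.22) in RPF. Igtp had 212, 263 and 380 CPM against 355, 342 and 337 CPM in total RNA, with the same order of the controls, and Ifi47 had 378, 439 and 521 CPM against 477, 442 and 455 CPM. In RPF, Igtp had 362, 462 and 686 CPM against 676, 602 and 568 CPM and Ifi47 990, 1055 and 1288 CPM against 1326, 1258 and 1181 CPM. None of these passed the test, and control 3 was the highest control for each of them.

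Irgm1, which directs autophagy and restrains the other GTPases, had 119, 188 and 285 CPM in control total RNA and 349, 308 and 310 CPM in the Rnmt cKO, without overlap, but its log2FC of 0.71 (SE 0.26) stood just outside the threshold (adjusted p = 0.0502 by edgeR's quasi-likelihood test). Gbp3, a guanylate-binding protein (ENSMUSG00000028268, chr3:142560026-142573209), was the GTPase that passed. It had 32.4, 39.9 and 48.3 CPM in control total RNA and 87.0, 78.3 and 89.4 CPM in the Rnmt cKO. RPF gave 47.3, 54.4 and 72.4 CPM against 88.7, 94.5 and 90.3 CPM. Control 1 was the lowest and control 3 the highest control, as for Gbp2, but all Rnmt cKO libraries lay above them, with a 2.11-fold increase in total RNA (log2FC 1.08, SE 0.13, adjusted p = 0.000371) and a 1.57-fold increase in RPF (log2FC 0.65, SE 0.14, adjusted p = 0.0104) by edgeR's quasi-likelihood test. With the B cell marker level as a covariate, the call in RPF was lost (adjusted p = 0.153 by edgeR).

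**Figure D4:**
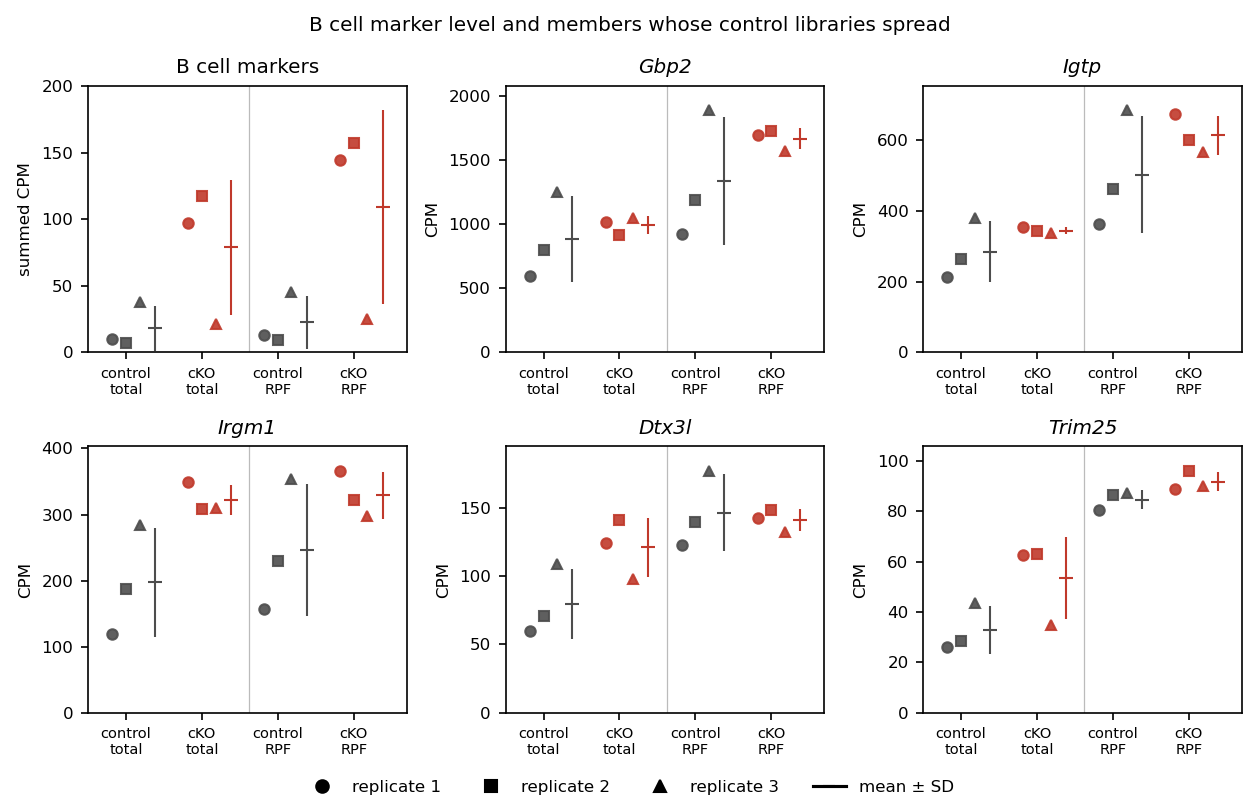
Summed CPM of 8 B cell markers and CPM of 5 members in each library, with the mean and SD (n = 3) beside the points. Control 3 (triangle) is the highest control for Gbp2, Igtp, Irgm1, Dtx3l and Trim25 and for the B cell markers, and Rnmt cKO 3 is the lowest Rnmt cKO library for the B cell markers, Dtx3l and Trim25 in total RNA.

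In the group of ISG15, ubiquitin and ADP-ribose transfer, Isg15 (a ubiquitin-like modifier; ENSMUSG00000035692, chr4:156199424-156200818) had the largest rise among the members that passed the filter on low counts. It had 0.637, 0.847 and 1.08 CPM in control total RNA and 3.80, 2.89 and 2.25 CPM in the Rnmt cKO. Only 1 control reached the level needed for a test there, so that Isg15 was tested and ranked in total RNA only through its Rnmt cKO libraries. RPF gave 2.91, 5.58 and 5.27 CPM against 12.2, 11.03 and 12.3 CPM. Low as it was, with 48 control and 164 Rnmt cKO reads in total RNA, the genotypes did not overlap, and the rise was 3.42-fold in total RNA (log2FC 1.77, SE 0.28, adjusted p = 0.00114) and 2.61-fold in RPF (log2FC 1.38, SE 0.26, adjusted p = 0.00516) by edgeR's quasi-likelihood test. In RPF the call was lost with the B cell marker level as a covariate (adjusted p = 0.0643 by edgeR), at a log2FC of 1.37. Usp18, which removes ISG15 from its targets and blocks the type I receptor, had a log2FC of 0.13 (SE 0.25) in total RNA and 0.59 (SE 0.29) in RPF and did not pass.

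Trim30a, a TRIM protein that dampens NF-kB signalling (ENSMUSG00000030921, chr7:104409025-104465193), fell. It had 68.2, 79.6 and 80.4 CPM in control total RNA and 46.8, 39.3 and 42.1 CPM in the Rnmt cKO, and in RPF 48.1, 40.8 and 53.2 CPM against 37.1, 28.5 and 34.5 CPM. The genotypes did not overlap, at log2FC values of -0.83 (SE 0.09, adjusted p = 0.000212) in total RNA and -0.51 (SE 0.13, adjusted p = 0.0215) in RPF by edgeR's quasi-likelihood test. The RPF call was lost without control 1, control 3 or Rnmt cKO 2. Trim25, the ubiquitin ligase of RIG-I signalling, had 26.2, 28.6 and 43.6 CPM in control total RNA and 62.5, 63.3 and 34.7 CPM in the Rnmt cKO, and did not pass (log2FC 0.70, SE 0.26, adjusted p = 0.0526 by edgeR's quasi-likelihood test).

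Dtx3l, an E3 ligase that works in a complex with PARP9, had 60.01, 70.9 and 109 CPM in control total RNA and 124, 141 and 97.9 CPM in the Rnmt cKO. Rnmt cKO 3 lay below control 3, so that the groups overlapped, and the log2FC of 0.60 (SE 0.22) only just passed (adjusted p = 0.0476 by edgeR's quasi-likelihood test). It was lost without any of 4 of the 6 samples, and with the B cell marker level as a covariate the log2FC was 0.09 (adjusted p = 0.664 by edgeR). Among the 3 samples lowest in B cell markers the log2FC was 0.60. That fit holds a single Rnmt cKO sample and leaves out control 3, the highest control for Dtx3l. In RPF, Dtx3l had 123, 139 and 177 CPM against 143, 148 and 133 CPM, with overlap. Parp9 and Parp14, which transfer ADP-ribose, had log2FC values of 0.01 (SE 0.11) and -0.09 (SE 0.19) in total RNA and did not pass. The annotated spans of Parp9 and Dtx3l overlap at their starts on opposite strands, and the counts used were those of the gene's own strand.

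Among the remaining members, Rtp4 and Xaf1 rose. Rtp4, a receptor transport protein that also restrains viral RNA synthesis, had 0.584, 0.582 and 0.647 CPM in control total RNA and 1.15, 1.44 and 1.68 CPM in the Rnmt cKO. In RPF it had 0.751, 1.06 and 0.736 CPM against 2.22, 2.05 and 2.21 CPM. The groups did not overlap, and the rises were 2.38-fold (log2FC 1.25, SE 0.24, adjusted p = 0.00299) and 2.55-fold (log2FC 1.35, SE 0.37, adjusted p = 0.0257) by edgeR's quasi-likelihood test, on 34 and 84 reads in total RNA and 21 and 49 in RPF. No control reached the level needed for a test in total RNA, so that Rtp4 was tested there only because its Rnmt cKO libraries did. Rtp4 could be tested in 3 of the 6 total RNA fits that left out a sample and was called in each, and the RPF call was lost without any of 4 samples.

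Xaf1, a promoter of apoptosis, had 1.86, 1.96 and 1.83 CPM in control total RNA and 3.39, 3.66 and 3.72 CPM in the Rnmt cKO, with little spread within either, and rose 1.91-fold (log2FC 0.93, SE 0.15, adjusted p = 0.0012 by edgeR's quasi-likelihood test). In RPF it had 4.04, 5.73 and 5.52 CPM against 7.61, 6.25 and 7.38 CPM, without overlap and not past the threshold (log2FC 0.48, SE 0.22). Ifi35, which binds NMI and modulates RIG-I signalling, increased 1.17-fold in RPF, from 93.7, 109 and 102 CPM to 119, 123 and 115 CPM, with a call (adjusted p = 0.0479 by edgeR's quasi-likelihood test) that was lost without any of 5 of the 6 samples.

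When the RPF and total RNA of the same sample were treated as a pair, TE was called lower for 4 members, Ifih1 (log2 change -0.92), Dtx3l (-0.67), Gbp3 (-0.42) and Irgm1 (-0.31), and higher for Bst2 (0.42), where 7.28% of all genes were called lower and 3.99% higher. In controls, the RPF level of Isg15 was 5.37 times its total RNA level and that of Isg20 3.74 times, while that of Ifit2 was 0.389 times and that of Mx2 0.306 times, beside a median of 1.51 for the members and 1.14 for all genes tested. These ratios set CPM of one kind of library against CPM of the other and are a description.

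The B cell fits changed which members were called. With the marker level as a covariate, 7 members increased and 4 decreased in total RNA (19.5% and 21.7% of all genes), and 1 increased and 2 decreased in RPF (4.24% and 4.88%). In total RNA the rises of Ifih1, Gbp3, Isg15, Bst2, Xaf1 and Rtp4 were called again, that of Mx2 was added and those of Dtx3l and Eif2ak2 were not called, and the falls of Ifit2, Trim30a and Adar were called again with that of Parp14 added. In RPF the members called were Bst2, Adar and Ifit2, so that the RPF calls of 7 others were lost. Their log2FC with the covariate was 1.37 for Isg15, 1.53 for Rtp4, 0.20 for Ifi35, -0.61 for Trim30a and -0.83 for Isg20, close to or beyond the values without it, while that of Gbp3 was 0.45 instead of 0.65 and that of Dhx58 0.78 instead of 1.11. In TE, Ifih1 and Dtx3l were called lower and none higher (7.54% and 3.99% of all genes). In the 3 samples lowest in B cell markers, where Isg15 and Rtp4 were too low to test in total RNA and the single Rnmt cKO sample is assumed to vary like the 2 controls, 13 members increased and 3 decreased in total RNA (23.9% of all genes each way), among 29 tested. Gbp2, Irf1, Irgm1 and Igtp had log2FC values of 0.60, 0.46, 1.04 and 0.53 there, in a fit without control 3, the highest control for each of them. In RPF 3 increased (Gbp3, Bst2 and Irf1; 3.8% of all genes) and Ifit2 alone decreased (2.82%), and in TE none passed in either direction (0.851% higher and 2.02% lower among all genes). Rnmt cKO 3 lay above every control for 14 of the 33 members in total RNA, beside 38.2% of all genes, and for 11 of 31 in RPF, beside 37.1%.

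Upstream of these genes, interferon gamma was the only interferon of 10 examined that could be tested. Ifng had 1.91, 1.43 and 3.07 CPM in control total RNA and 18.9, 23.8 and 18.01 CPM in the Rnmt cKO, and in RPF 3.01, 2.26 and 2.33 CPM against 41.3, 39.4 and 29.8 CPM. The groups were far apart, with a 9.45-fold rise in total RNA (log2FC 3.24, SE 0.24, adjusted p = 3.62e-05 by edgeR's quasi-likelihood test). Ifnb1, Ifna1, Ifna2, Ifna5 and Ifnl3 had no read in any of the 12 libraries, which allows up to 0.199 CPM in the shallowest total RNA library and 0.728 CPM in the shallowest RPF library, for counting error only. These limits are 3 reads over the library size before TMM scaling. Ifna4, Ifnl2, Ifnk and Ifne had 1 or 2 reads in a single library each.

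Of 22 genes for interferon receptors and signalling, 21 were tested, and 6 increased and 4 decreased (28.6% and 19.0%) in total RNA, where 26.3% and 28.0% of all genes did. The counts were the same in RPF, where 14.1% and 15.7% of all genes did. Ifngr1, the binding chain of the interferon gamma receptor, decreased (log2FC -0.75, SE 0.09 in total RNA), as did Ifnar1 of the type I receptor (-0.28, SE 0.05), whereas Ifngr2 (-0.22, SE 0.16) and Ifnar2 (0.05, SE 0.08) did not pass. Jak2, the kinase bound to the second chain of the gamma receptor, increased (1.12, SE 0.08), and so did Socs1, the feedback inhibitor of JAK kinases, with 18.5, 25.4 and 27.2 CPM against 57.8, 66.8 and 46.5 CPM (1.27, SE 0.17). Jak1 and Tyk2, the other receptor kinases, had log2FC values of -0.05 (SE 0.11) and 0.07 (SE 0.10), and neither passed in total RNA. In RPF Jak1 decreased, from 754, 714 and 749 CPM to 572, 543 and 563 CPM without overlap (log2FC -0.40, SE 0.06).

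Of 23 genes of nucleic acid sensing, 20 were tested in total RNA, and 6 increased and 7 decreased, where 26.3% and 28.0% of all genes did. The DNA sensor cGAS (listed as Mb21d1) and its partner STING (listed as Tmem173) increased, with log2FC values of 0.71 (SE 0.10) and 0.65 (SE 0.07). Mavs, the mitochondrial adaptor of MDA5 and RIG-I, and Irf3, the factor at the end of these paths, decreased by log2 values of -0.29 (SE 0.10) and -0.28 (SE 0.08), and the kinase Tbk1 did not pass (0.08, SE 0.07). The call of Mavs was lost without any of 5 of the 6 samples and that of Irf3 without any of 3. In RPF, 4 of 21 genes tested increased and 3 decreased, where 14.1% and 15.7% of all genes did. Mb21d1, Tmem173, Mavs, Irf3 and Tbk1 did not pass there.

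Another 68 genes known to respond to interferon, which are not members, also moved both ways. Among the 61 tested in total RNA, 12 rose and 15 fell (19.7% and 24.6%, beside 26.3% and 28.0% of all genes), and their median log2FC was -0.18. In RPF 11 of 62 rose and 11 fell (17.7% each, beside 14.1% and 15.7%), and the median was -0.04. The largest rises were those of the chemokine Cxcl10 (log2FC 2.24, SE 0.44), Ube2l6, the conjugating enzyme of ISG15 (1.61, SE 0.37), and Tor3a (1.54, SE 0.20). Ube2l6 had 0.478, 0.688 and 0.809 CPM in control total RNA and 2.10, 2.84 and 1.21 CPM in the Rnmt cKO, with Rnmt cKO 3 the lowest of the latter. No control of Ube2l6 and 1 of the 3 of Cxcl10 (0.159, 0.900 and 1.24 CPM) reached the level needed for a test, so that both were tested and ranked only through their Rnmt cKO libraries. With the B cell marker level as a covariate Ube2l6 was not called (adjusted p = 0.119 by edgeR). The largest falls were those of Trim34a (-2.15, SE 0.22), the GTPase Irgm2 (-1.24, SE 0.20) and Phf11b (-1.12, SE 0.18). Trim34a, a neighbour in family of Trim30a, had 18.8, 21.6 and 22.2 CPM in control total RNA and 5.50, 2.94 and 5.70 CPM in the Rnmt cKO, without overlap.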

How the data were processed

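The authors removed adapters with Cutadapt and ribosomal RNA and tRNA reads with Bowtie, used STAR 2.5.2b for alignment to mm10 (GENCODE vM12) and deposited counts of uniquely aligned reads per gene. A deposited table of 10126 genes holds normalized signal values per library, which served only to choose the strand of the counts, and the authors' own fold changes and p-values, which were not used. Totals that named no gene held 41.1 to 47.0% of total RNA reads and 53.9 to 70.4% of RPF reads and were left out.

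After the filter on CPM and TMM normalization, genes were tested with edgeR 4.0.16 (quasi-likelihood, R 4.3.3), with Benjamini-Hochberg adjustment over all genes and a threshold of 0.05. TE was the genotype by kind interaction in 12 libraries, in place of RiboDiff. The SE is the log2 fold change over the square root of F. The fits were tested on simulated data. Symbols and positions came from GENCODE vM21, and promoters from RefSeq. The median SE was 0.18 (total RNA), 0.16 (RPF) and 0.26 (TE) for members and 0.10, 0.12 and 0.16 for all genes. Alternatives were no TMM, DESeq2 1.42.0, edgeR's exact test, no filter, at least 10 counts in every library, both strands, protein-coding genes, each sample left out, a replicate block and, for TE, a sample block. The fits for B cell markers were added after seeing the data. Total RNA and RPF libraries of the same genotype and number deviated together (r between 0.11 and 0.38 over 10668 genes for all 6 pairs), so that the fit with the block is given beside the unpaired TE result, which has none.

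The members and lists were chosen with earlier results of these data known. Values per library were due for the largest changes past the threshold (6 each way in total RNA, 3 in RPF and TE) and the 3 most abundant members per kb; a set of pathway genes, 1 of which is not reported here, and the 3 largest rises and falls among the other interferon-stimulated genes were named by rule. Marker genes and Bst2, Eif2ak2, Ifi35, Irf1, Irf7, Irgm1 and Trim25 were given per library after their values were seen.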

Additional observations from a re-analysis of the deposited data

Results flagged for a closer look

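RPF and total RNA gave different genotype effects for 6 of the genes examined, by the interaction term of edgeR with Benjamini-Hochberg adjustment. They came from 31 members, 21 genes of receptors and signalling, 20 of nucleic acid sensing, 61 other interferon-stimulated genes and Rnmt tested in TE. Of all 10668 genes tested, 3.24% were higher and 6.57% lower. Among the members the gene called was Ifih1, whose log2 change of TE was -0.96, and with total RNA and RPF of the same sample as pairs also Dtx3l, Gbp3 and Irgm1, which were lower, and Bst2, which was higher. The other genes of the 6 were the phosphatase Ptpn2 with -0.42, STING (Tmem173) with -0.45, the adaptor Traf3 with 0.55, Slfn2 of the other interferon-stimulated genes with -0.37, and Rnmt itself with -1.62.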

How the results depend on the processing

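In total RNA 8 of 33 members increased, where 26.3% of all genes did. Without the filter on low counts 15 of 39 did (12.1% of 29236 genes, counted over every gene with a read and so unlike the members). In the 3 samples with the lowest B cell markers, which hold a single Rnmt cKO sample, 13 of 29 did (23.9%). With a sample left out 5 of 31 (without Rnmt cKO 1) to 14 of 32 (without control 3) did, with no share of all genes given. The median log2 fold change of the 33 members tested, 0.27, was 0.088 with the B cell covariate. With a sample left out that median was 0.13 (without control 1) to 0.35 (without control 3). The 6 of 31 that increased in RPF, where 14.1% of all genes did, were 10 of 39 without the filter. The share there was 6.98% of 26748 genes, again over every gene with a read and so unlike the members. With the B cell covariate 1 of 31 increased (4.24%). With a sample left out 3 (without control 1 or Rnmt cKO 2) to 8 (without control 3) of 31 did. The share of all genes in those fits is not given. The 4 that decreased, where 15.7% of all genes did, were 2 with the covariate (4.88%). In TE, 1 of 31 members increased and 4 decreased with the sample block (3.99% and 7.28% of all genes). Without the block none increased and 1 decreased (3.24% and 6.57%). With the covariate 2 decreased (7.54%). With a sample left out 0 to 2 decreased, with no share of all genes given. The median TE change of 0.01 was -0.035 in the low B cell samples and -0.041 to 0.00389 with a sample left out. The cause was not tested. Of the 22 gene-level calls examined, which were those past the threshold in the main fits, none changed direction in any alternative. Over those calls, 292 alternative fits kept the call and 53 lost it.

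With the replicate block, total RNA had 7 of 33 members up and 3 down, and RPF 5 of 31 up and 4 down. No share of all genes is given for these fits. The replicate numbers do not pair the genotypes, since deviations of same-numbered total RNA libraries correlated at -0.23, -0.17 and -0.48 and those of RPF libraries at 0.28, -0.12 and 0.12. Members too low to test, and the RPF of Rnmt cKO 3 with 4123271 reads, limit what could be detected.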
